A study of Mus musculus with 12 samples.

Results

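The stretch of mouse chromosome 1 from 130 to 140 Mb (build mm10) holds 646 of the 94161 accessible regions in the deposited table, and every region that starts there was taken. The stretch was selected on the fold changes between LSD1 knockout and wild-type B cells, since regions that differed gathered there. These values are therefore given as a description, with no test. The rule names 8 of its genes: Cd55, Fcamr, Il10, Rab7b, Ren1, Lgr6, Ptprc and Kif14. Of the 646 regions, 621 reached at least 1 rppm (reads in the region, scaled to 1000000 reads in all regions) in at least 3 libraries and entered the fits, and 25 did not. The first region began at 130035249 and the last at 139719652. Regions were 124 to 1629 bp wide (median 331.5) and covered 259 kb. Of the 646, 407 (63%) lay in the body of a protein-coding gene, against 57.3% of all regions, and 63 (9.75%) lay over a start site, against 9.37%.

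Open chromatin was profiled by ATAC-seq, which uses Tn5 transposase to cut and tag accessible DNA, on 10000 sorted cells per library. Spleens of female C57BL/6J mice supplied the cells, without stimulation, and all 12 libraries carry that strain label. Marginal zone B cells (MZB), a population beside the marginal sinus that meets antigens from the blood first, passed a CD23- CD21hi CD1d+ gate. Follicular B cells (FoB), the main recirculating population, passed a CD23+ CD21mid CD1d- gate. Cells in both gates were B220+ and lacked the markers Thy1.1, F4/80, CD11b, GL7 and CD93. The lsd1 status was wild-type or knockout, which gave 4 groups of 3 libraries. The sources used here do not give the deleted part of the gene, the driver of the deletion or the cells in which it acts. They also do not state separate animals for the libraries of a group, and p-values then cover the spread of these libraries alone. In sorted populations a change in the share of a cell subset and a change within each cell cannot be told apart.

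LSD1, encoded by Kdm1a, removes methyl groups from lysine 4 of histone H3, a mark of active enhancers and promoters, and works with corepressor complexes. The chromosome 1 stretch carries genes of very different use. At one end lie regulators of complement and receptors for antibody, such as Cd55, Fcamr, Fcmr and Pigr, beside Il10, a cytokine that restrains immune responses and that some B cells make. Toward the other end lies Ptprc, which encodes the leukocyte phosphatase CD45, known as B220 in the form that marks B cells. Between them lie genes better known from other tissues: Ren1 (renin, of the kidney), Lgr6 (a receptor for R-spondins in the Wnt pathway) and the troponin genes Tnni1 and Tnnt2 of muscle.

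Most regions described here are distal, but 5 of the regions called in a knockout comparison (defined below) cover the start of a protein-coding gene. Their promoters are printed because they show what kind of start site was involved: the RefSeq sequence (GRCm38.p6) of the 250 bases before each start, 5′ to 3′ on the gene's strand. Capitals mark matches on either strand to the CCAAT box, to the GC box (letters GGGCGG) or to the core of the cyclic AMP response element (letters TGACG). These were the motifs found among 5 searched, the others being the TATA box (letters TATAAA) and the Ets core (letters CGGAAG). In Etnk2, 2 GC boxes overlap. Matches describe the letters and are no evidence of a bound factor.
Etnk2, chr1:133363322-133363571, plus strand: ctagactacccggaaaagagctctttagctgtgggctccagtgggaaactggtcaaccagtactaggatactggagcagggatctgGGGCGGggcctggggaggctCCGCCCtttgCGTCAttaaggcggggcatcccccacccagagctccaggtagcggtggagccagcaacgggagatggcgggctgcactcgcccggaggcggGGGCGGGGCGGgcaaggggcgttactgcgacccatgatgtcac
Syt2, chr1:134709050-134709299, plus strand: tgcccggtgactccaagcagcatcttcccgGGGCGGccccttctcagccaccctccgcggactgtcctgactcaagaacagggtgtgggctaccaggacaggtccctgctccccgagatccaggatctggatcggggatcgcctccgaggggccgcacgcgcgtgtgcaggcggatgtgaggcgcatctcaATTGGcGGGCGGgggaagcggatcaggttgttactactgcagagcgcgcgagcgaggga
Ube2t, chr1:134962315-134962564, plus strand: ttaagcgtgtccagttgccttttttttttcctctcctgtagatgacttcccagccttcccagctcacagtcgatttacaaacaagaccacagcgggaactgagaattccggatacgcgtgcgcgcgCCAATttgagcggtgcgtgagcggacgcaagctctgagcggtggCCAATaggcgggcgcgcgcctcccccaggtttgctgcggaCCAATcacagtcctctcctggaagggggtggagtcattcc
Rnpep, chr1:135284085-135284334, minus strand: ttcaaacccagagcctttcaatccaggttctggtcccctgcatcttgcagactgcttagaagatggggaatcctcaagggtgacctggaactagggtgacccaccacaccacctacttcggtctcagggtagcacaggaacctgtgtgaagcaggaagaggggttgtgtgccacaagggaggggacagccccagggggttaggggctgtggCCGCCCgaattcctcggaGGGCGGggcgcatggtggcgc
Tmem9, chr1:136007969-136008218, plus strand: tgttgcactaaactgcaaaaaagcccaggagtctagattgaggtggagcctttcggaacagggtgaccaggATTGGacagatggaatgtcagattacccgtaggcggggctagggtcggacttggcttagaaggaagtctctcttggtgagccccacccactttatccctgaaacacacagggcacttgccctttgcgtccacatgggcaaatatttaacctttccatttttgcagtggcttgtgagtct
The promoters of Etnk2 and Syt2 were rich in G and C (65.2% and 66.4%), that of Tmem9 was not (50.4%), and the median of the 32851 promoters in the RefSeq table was 52.4%. The Ube2t promoter (57.6% GC) held CCAAT at 3 places, and the Rnpep promoter (60.4% GC) held a GC box at 2. The searched motifs are common: 33.8% of promoters of that length held the CCAAT box, 32.7% the GC box and 17.8% the cyclic AMP response core. The TATA box (12.4% of promoters) and the Ets core (13.6%) matched none of the 5.

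Libraries held 3169966 to 10375328 reads in regions, and 3 reads were worth 0.2891 to 0.9464 rppm. FoB wild-type library 2 was the deepest and stood apart from its group in the stretch, as described below. The counts of regions called in FoB and the median FoB fold changes are therefore also given without it. The FoB values of single regions, the SDs, ranks and correlations include it. The single region at Kdm1a (chr4:136601890-136603082, over its start site) held 16.5 to 29.7 rppm in every library and was not called in either knockout comparison. A region over a start site does not report a deletion elsewhere in the gene, so it does not check the labels. The summed signal at 5 MZB marker genes was 1140 to 1200 rppm in wild-type MZB and 802 to 859 in wild-type FoB. That at 4 FoB marker genes was 532 to 538 and 719 to 735, so both followed the sort. Of the markers of other cells, Cd3g, Cd4, Cd8a, Mpo and Gzma had no region. Of 58 tested regions at 6 immature B cell genes, 6 were called higher in knockout MZB, against 0.502% of all tested regions. Their summed signal was 364 to 377 rppm in wild-type and 472 to 501 in knockout MZB, and 560 to 599 and 600 to 654 in FoB. That of 8 myeloid genes was 320 to 328 and 346 to 384 in MZB and 280 to 283 and 285 to 298 in FoB, so wild-type libraries lay below knockout ones in both cell types. In MZB the same held for 5 germinal centre and plasma cell genes (861 to 901 and 924 to 956) and 5 NK cell genes (327 to 333 and 339 to 377), whose ranges overlapped in FoB. In FoB, 6 B cell genes summed to 1610 to 1630 in wild-type and 1460 to 1570 in knockout libraries, and in MZB their ranges overlapped. In knockout MZB, 2 of 45 myeloid and 1 of 72 germinal centre and plasma cell regions were also called higher. In knockout FoB, 1 of 72 germinal centre and plasma cell and 1 of 83 MZB marker regions were called higher (background 0.32%). No region of a marker list was called lower. The ranges of 8 T cell genes overlapped in both cell types (85.8 to 96 and 85.7 to 94 in MZB). The part of these shifts in the results below was not tested.

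A region was called where the adjusted p of limma, over all 89782 tested regions, was under 0.05. In MZB, 28 regions of the stretch were called higher in the knockout, against 0.502% of all tested regions, and 24 lower, against 0.275%. Together 52 of 621 (8.37%) were called, against a background of 0.777%. In FoB, 19 were called higher (background 0.32%) and 20 lower (background 0.219%), 39 in all (6.28%, background 0.539%). Since these comparisons chose the stretch, nothing is read from the excess. The groups' libraries did not overlap at 93 regions higher and 86 lower in knockout MZB (background 8.13% and 9.55%) and at 75 higher and 88 lower in knockout FoB (background 7.18% and 7.51%). The count of regions called higher in MZB fell with any MZB library left out, to 24 without knockout library 1 and 19, 21 and 19 without wild-type libraries 1, 2 and 3. It was lowest without knockout library 2 (16) and knockout library 3 (17), where calls over all tested regions also fell, from 698 to 315 and 407. Those calls were 379, 399 and 321 without wild-type libraries 1, 2 and 3, and 717 without knockout library 1. In FoB the count called higher was 11 without wild-type library 1, 12 without wild-type library 3 and 12 without knockout library 2. Calls over all tested regions fell there from 484 to 286, 309 and 341. Without knockout libraries 1 and 3 the count was 13 and 14, with 288 and 309 calls over all tested regions. Without the library that stood apart, FoB wild-type library 2, FoB had 18 regions called higher and 21 lower, with 501 calls over all tested regions. A count test on the recovered whole reads, edgeR, called 25 higher (background 0.427%) and 21 lower (0.35%) in MZB and 18 higher (0.362%) and 21 lower (0.27%) in FoB. DESeq2 on the same reads called 13 higher (background 0.136%) and 12 lower (0.0535%) in MZB and 11 higher (0.116%) and 13 lower (0.0579%) in FoB.

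Called regions of the stretch went in both directions, and its total signal hardly differed. The summed level was 5800 ± 128 rppm (SD, n = 3) in wild-type MZB and 5890 ± 185 in knockout MZB, and in FoB it was 6110 ± 105 with the wild type and 6140 ± 75.1 with the knockout. The median log2 fold change was 0.02 in MZB and -0.01 in FoB, but the fold changes spread more widely than elsewhere. Their SD was 0.70 in MZB, against 0.40 over the other 89161 tested regions, and 0.59 in FoB, against 0.34. At least 2-fold differences were seen at 67 regions (10.8%) in MZB and 47 (7.57%) in FoB, against 2.7% and 1.04% elsewhere. Among the 253 stretches of 10 Mb with at least 50 tested regions, this one ranked 1 by the SD of fold changes in MZB and 4 in FoB. By the share of regions called it ranked 2 in MZB and 3 in FoB.

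**Figure D1:**
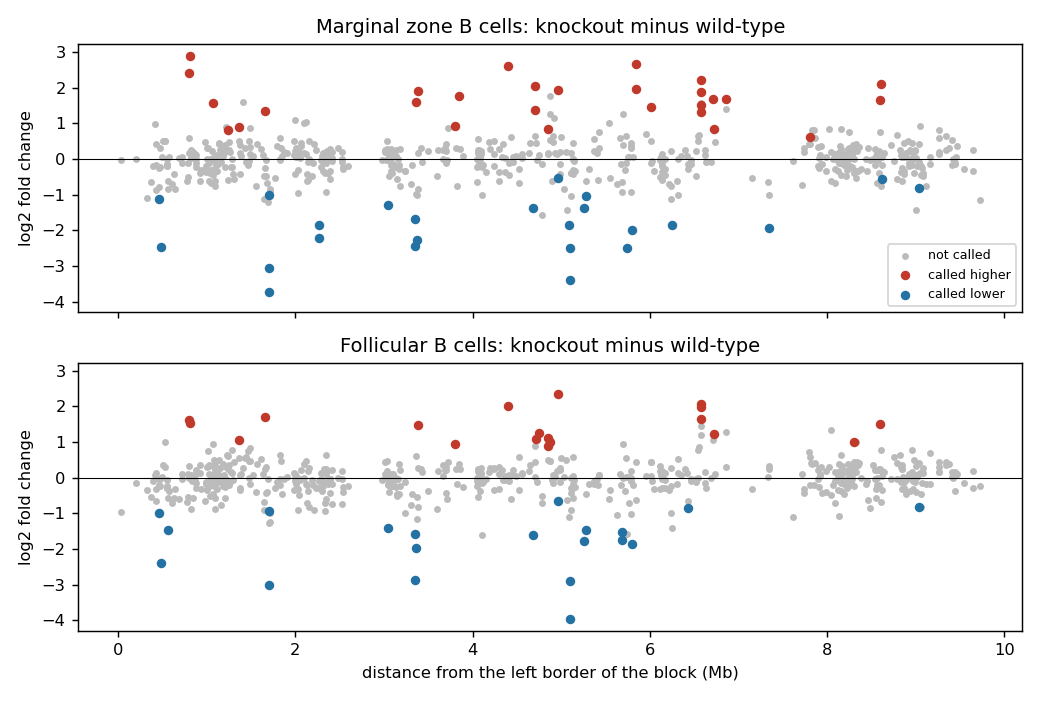
Log2 fold change of knockout over wild-type (vertical axis) for each of the 621 tested regions against its distance from the left border of the stretch in Mb, in MZB (top) and FoB (bottom). Red points were called higher (28 and 19), blue points lower (24 and 20) and grey points were not called; called points of both directions lie side by side over most of the stretch and are fewest near 2, 7 and 9 Mb.

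Along the stretch the calls were spread over many genes rather than gathered at one locus. The 62 regions called in either cell type were assigned to 35 genes, and the median gap between neighbouring called regions was 50 kb. Of the 61 pairs of neighbours, 19 lay within 10 kb, and 15 of these went the same way and 4 opposite ways. Of the 42 pairs farther apart, 30 went the same way. The Mb from 135 to 136, with Lgr6 and the troponin genes, had 7 regions lower and 2 higher in MZB and 7 lower and 0 higher in FoB, and its fold changes had an SD of 1.06 and 0.88. The next Mb, from 136 to 137, with the Kif14 regions, went mainly up, with 8 higher and 1 lower in MZB and 4 higher and 1 lower in FoB. From 134 to 135 Mb, with Syt2, Ppp1r12b and Ube2t, 5 regions were higher and 2 lower in MZB and 7 higher and 2 lower in FoB.

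Other parts stood quieter inside the stretch. From 132 to 133 Mb, 0 of 59 regions were called higher and 2 lower in MZB, and 0 were called in FoB, where the SD was 0.34, the value of the rest of the genome. From 137 to 138 Mb, 1 region was higher and 1 lower in MZB and 0 were called in FoB. From 138 to 139 Mb, the Mb with the most tested regions (113) and much of the signal at Ptprc and Nek7, 2 were higher and 1 lower in MZB and 2 higher and 0 lower in FoB, with SDs of 0.41 and 0.39.

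The borders were placed at round positions and do not mark where the differences begin or end. The last tested regions before 130 Mb, in Thsd7b at 129768119 and 129771352, had log2 fold changes of -0.45 and -0.14 in MZB and 0.09 and 0.15 in FoB. The first inside, also in Thsd7b, at 130035249 and 130202312, had -0.02 and 0.01 in MZB and -0.96 and -0.16 in FoB. The last inside were at Cfhr3 (139650525; -0.33 and -0.30) and Gm4788 (139719652; -1.16 and -0.23), MZB and FoB in turn. Beyond the right border, a region at Kcnt2 (140315312) had -0.07 in MZB and 0.19 in FoB. None of these named border regions was called. Beyond them, the 10 Mb before the stretch had 9 regions higher and 9 lower in MZB (6.52% of 276, background 0.777%). In FoB they had 5 higher and 9 lower (5.07%, background 0.539%). From 120 to 121 Mb alone there were 4 higher and 6 lower in MZB and 4 higher and 4 lower in FoB. The 1 Mb bins just outside the borders, from 129 and from 140 Mb, had 0 called in either cell type. The 10 Mb after the stretch had 1 higher and 6 lower in MZB (4.29% of 163) and 0 higher and 19 lower in FoB (11.7%). By the share called in FoB these last 10 Mb ranked 1 of 253, above the stretch itself at 3.

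**Figure D2:**
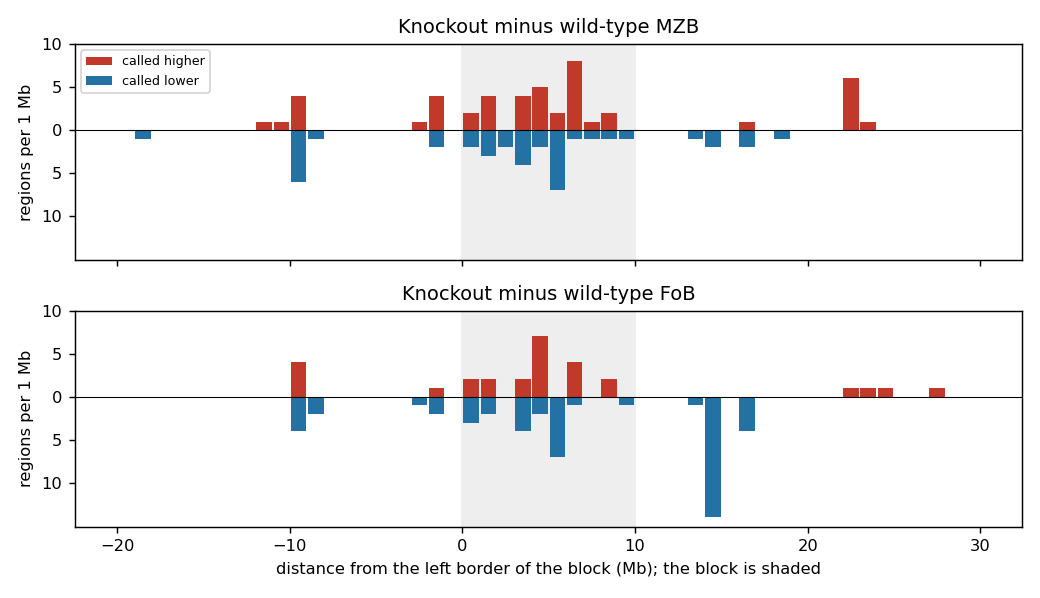
Number of regions per 1 Mb called higher (red, upward) or lower (blue, downward) in the knockout, in MZB (top) and FoB (bottom), against distance from the left border of the stretch in Mb, with the stretch shaded. Calls of both directions run through the shaded part, with up to 8 higher and 7 lower in 1 Mb in MZB. Further calls lie on both sides, but the bins just outside the borders held 0. In FoB the tallest bar, 14 lower regions from 144 to 145 Mb, lies outside the shaded part.

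MZB and FoB were compared with separate libraries. The stretch was selected on these same fold changes, which can raise the likeness of the 2 cell types in it, so the values below describe it and nothing is read from their excess over other regions. Of the called regions, 29 were called in both cell types, which is 55.8% of those called in MZB and 74.4% of those called in FoB. Of the 29, 14 were higher and 15 lower in both, and 0 went opposite ways. A further 23 were called in MZB and not in FoB, and 10 in FoB and not in MZB. Across regions the correlation of the 2 fold changes was 0.70 (Pearson, 621 regions), and 0.44 over the 559 regions called in neither, against 0.23 over the 89161 tested regions elsewhere. Regions are not replicates, and those of 1 group share its 3 libraries. The sources used here do not say whether MZB and FoB came from the same mice. Of the 52 regions called in MZB, 50 (96.2%) had the same sign in FoB, against 560 of 646 (86.7%) elsewhere.

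**Figure D3:**
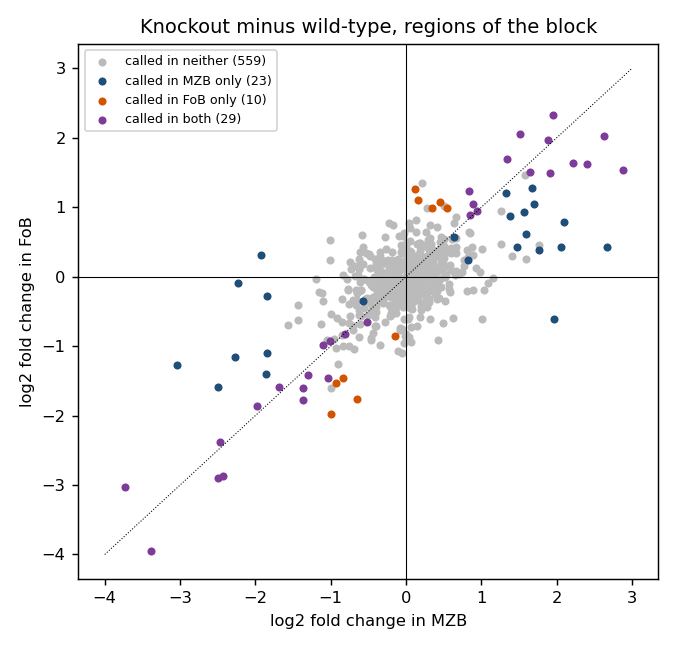
Log2 fold change of knockout over wild-type in MZB (horizontal) against FoB (vertical) for the 621 tested regions, with the line of equal change dotted. The 29 regions called in both cell types (purple) lie toward the upper right and lower left, and the 23 called in MZB and not FoB (dark blue) lie closer to the horizontal axis.

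The difference of the 2 knockout effects was fitted as a contrast of its own. It is built from the fold changes on which the stretch was selected, so its p-values are a description. With limma, 0 of the 621 regions were called (background 0.00111%, which is 1 region), and 44 (7.09%) had an unadjusted p under 0.05, against 6.22% of all. On the recovered reads, edgeR and DESeq2 also called 0 in the stretch (backgrounds 0.00223% and 0.00111%). The difference with the smallest p was at Tnnt2, the cardiac troponin T gene (chr1:135847182-135847514). There wild-type MZB had 2.16, 1.6 and 1.87 rppm, knockout MZB 6.53, 9.78 and 10.3, wild-type FoB 1.1, 1.64 and 1.91, and knockout FoB 2.07, 0.206 and 0.762. Signal was high in the 3 knockout MZB libraries and low in the other 9, and the groups overlapped in FoB. The effect in MZB exceeded that in FoB by 2.58 ± 0.52 on the log2 scale (SE), with a limma adjusted p of 0.158. This region was picked for the smallest p of 621, so a low value at some setting is no support. It passed the threshold without FoB knockout library 1 (adjusted p = 0.028) and with a pseudocount of 2 (adjusted p = 0.0437). Over all settings the adjusted p ran from 0.028 to 1. A region called in 1 cell type and not in the other is therefore not shown to differ between them.

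Of the 8 genes named in the rule, Rab7b, Lgr6, Ren1 and Cd55 were assigned called regions that were lower in the knockout. Fcamr and Kif14 were assigned called regions that were higher. Ptprc had 1 region called, and Il10 had 0. Rab7b, which encodes a small GTPase of late endosomal traffic, had 6 tested regions, and their fold changes ranged from -3.73 to -0.84 in MZB and from -3.02 to -0.04 in FoB. At chr1:131700467-131700753, inside the gene, wild-type MZB had 6.21, 7.71 and 8.09 rppm and knockout MZB 0, 0.315 and 0. Wild-type FoB had 5.75, 4.24 and 5.97 rppm and knockout FoB 0, 0.206 and 0.508. All 6 wild-type libraries were high and all 6 knockout libraries at or near 0, with log2 fold changes of -3.73 ± 0.36 and -3.02 ± 0.36. The MZB groups held 78 and 1 reads, a depth-scaled ratio of 79.2 (95% interval 13.8 to 3170, for counting error only), and the FoB groups 90 and 3, a ratio of 22.4 (7.43 to 111).

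A neighbouring region inside Rab7b, chr1:131703624-131703754, had 3.51, 3.99 and 3.42 rppm in wild-type MZB and 0 in each knockout MZB library. In reads this was 39 against 0, a depth-scaled ratio whose 95% interval began at 10.2 (counting error only). Wild-type FoB had 1.37, 0.675 and 1.19 rppm and knockout FoB 0, 0.206 and 0.254 there (17 and 2 reads), and it was called in MZB and not in FoB. The wild-type signal was lower in FoB than in MZB, and the knockout libraries lay below the wild-type ones in both cell types. The summed level over the 6 regions was 35.3 ± 2.58 rppm in wild-type and 11.7 ± 4.14 in knockout MZB, and 24.3 ± 4.2 and 9.22 ± 1.21 in FoB.

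Lgr6 held the largest fall in FoB. At chr1:135095113-135095653, inside the gene, wild-type MZB had 18.6, 24.5 and 21.1 rppm and knockout MZB 1.4, 1.58 and 1.77. Wild-type FoB had 13.1, 8.39 and 12.4 rppm and knockout FoB 0, 0.618 and 0.254. The groups were far apart in both cell types, with log2 fold changes of -3.39 ± 0.28 and -3.95 ± 0.28. The region next to it, chr1:135094808-135095052, went the same way (-2.50 ± 0.38 and -2.89 ± 0.38), and one at 135090802 was called in MZB (-1.85). Among the 10 tested regions in the body of Lgr6 the fold changes ran from -3.39 to 0.62 in MZB and from -3.95 to 0.54 in FoB, so the gene did not move as a whole. The 4 assigned regions outside it were not called.

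At Ren1 all 3 tested regions had lower signal in the knockout. The one 2204 bp outside the gene, chr1:133347758-133348470, had 14.6, 13.3 and 13.4 rppm in wild-type MZB and 1.63, 2.52 and 2.36 in knockout MZB. Wild-type FoB had 16.2, 11.5 and 14.3 rppm there, and the knockout had 1.45, 1.44 and 1.52. The knockout libraries lay closely together and far below the wild-type ones (-2.43 ± 0.23 and -2.86 ± 0.23). Inside the gene, the region at 133353543 was called in both cell types (-1.69 and -1.59). That at 133356288 was called in FoB (-1.97 ± 0.30) and not in MZB (-0.99 ± 0.30).

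Cd55 encodes decay-accelerating factor, which limits complement activation on the cell's own surface. At chr1:130478133-130478292, 13124 bp from the gene, wild-type MZB had 3.24, 3.46 and 4.66 rppm and knockout MZB 0, 0.315 and 0.591. Wild-type FoB had 7.39, 2.89 and 3.58 rppm and knockout FoB 0.414, 0.618 and 0.254. Wild-type libraries were higher in each cell type without overlap (-2.47 ± 0.39 and -2.38 ± 0.39). The region at 130465336 was also called in both (-1.11 and -0.98). The 2 regions in the gene's body had fold changes of -0.79 to -0.24 in MZB and -0.21 to -0.04 in FoB and were not called.

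Fcamr and Kif14 went the other way. Fcamr encodes a receptor for the Fc part of IgA and IgM. At chr1:130798379-130798885, inside the gene, wild-type MZB had 2.16, 2.13 and 0.933 rppm and knockout MZB 8.4, 11 and 13.9. Wild-type FoB had 1.64, 2.7 and 2.15 rppm and knockout FoB 7.24, 7.21 and 8.39. Every knockout library exceeded every wild-type library of its cell type (2.40 ± 0.27 and 1.62 ± 0.27). The region at chr1:130810068-130810533 rose likewise, from 1.62, 0.266 and 0.622 to 9.1, 8.52 and 7.98 rppm in MZB (2.88 ± 0.35) and from 1.1, 1.73 and 0.478 to 3.72, 3.91 and 4.07 in FoB (1.54 ± 0.35). The other 5 tested regions in the body of Fcamr were not called.

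Kif14, a kinesin needed for cytokinesis, was the nearest gene to 4 called regions that lay 22301 to 25967 bp from it. Their nearest start site was that of Zfp281, 42699 to 46198 bp away. At chr1:136580357-136580709 wild-type MZB had 1.62, 1.86 and 1.24 rppm and knockout MZB 8.4, 10.4 and 8.57. Wild-type FoB had 1.1, 4.43 and 1.91 rppm and knockout FoB 7.45, 10.7 and 5.85. The groups did not overlap (2.22 ± 0.30 and 1.63 ± 0.30), although wild-type FoB library 2 lay well above its group mates. The other 3 regions of the cluster had fold changes of 1.88, 1.51 and 1.32 in MZB and 1.97, 2.06 and 1.20 in FoB, and the last of these was not called.

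Ptprc and Il10 differed from the other 6 genes. Ptprc had 52 tested regions, more than any other gene of the rule, and 1 was called, in MZB. That region, chr1:137806255-137807220, lay 255639 bp outside the gene. It had 13.8, 13.6 and 18 rppm in wild-type and 22.9, 24.6 and 23.1 in knockout MZB (0.63 ± 0.15), and 12, 12.3 and 9.79 and 18.2, 18.9 and 14.2 in FoB (0.56 ± 0.15, not called). The 21 regions in the body of Ptprc, the gene of the B220 sort marker, were not called, and their summed level was 164 ± 8.67 and 170 ± 13.5 rppm in wild-type and knockout MZB and 164 ± 9.31 and 170 ± 10.6 in FoB. At Il10, 0 of 11 regions were called in either knockout comparison. The 3 in its body summed to 32.7 ± 4.05 and 30.7 ± 1.92 rppm in wild-type and knockout MZB.

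**Figure D4:**
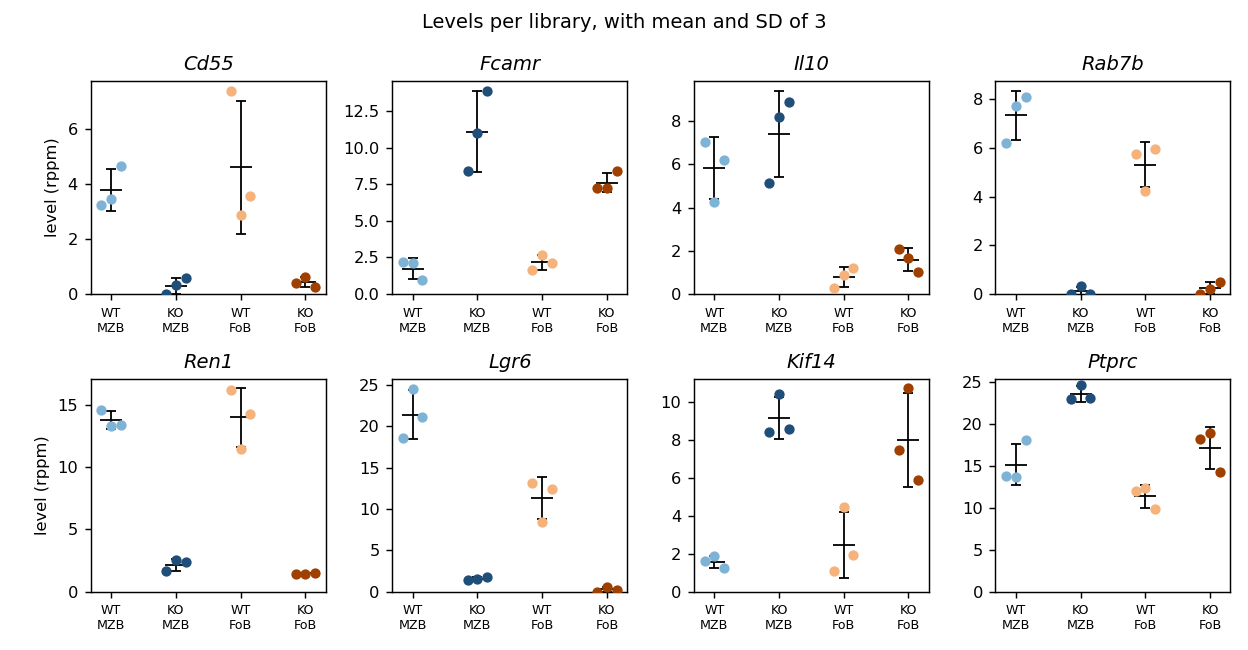
Level in rppm (vertical axis, from 0) of 1 region for each of the 8 genes of the rule, the region with the smallest p in either knockout comparison, in wild-type (WT) and knockout (KO) MZB and FoB; points are libraries, and bars are mean and SD of 3. Knockout libraries lie below wild-type ones at Cd55, Rab7b, Ren1 and Lgr6 and above them at Fcamr, Kif14 and Ptprc in both cell types, while at Il10 MZB lie above FoB.

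Other genes of the stretch also held called regions. Falls were seen at Pik3c2b, a class II phosphoinositide kinase (chr1:133039412-133039892), where wild-type MZB had 10.8, 15.2 and 10.9 rppm and knockout MZB 4.66, 5.99 and 3.55, and where FoB went from 15.1, 11.3 and 18.4 to 5.59, 5.97 and 4.07. At Tnni1, the slow skeletal troponin I gene (chr1:135793676-135794099), MZB went from 5.94, 8.51 and 9.64 to 1.87, 1.89 and 1.18 rppm and FoB from 8.21, 4.14 and 6.69 to 1.24, 1.24 and 1.52. The knockout libraries lay below the wild-type ones in both genes and both cell types, with log2 fold changes of -1.30 and -1.42 at Pik3c2b and -1.98 and -1.86 at Tnni1. Near Elf3, which encodes an Ets factor of epithelia, chr1:135259049-135259493 fell by 1.36 in MZB and by 1.78 in FoB on the log2 scale. At Csrp1, chr1:135740366-135740524 held 2.16, 2.66 and 2.18 rppm in wild-type MZB and 0 in each knockout library. The reads were 25 and 0, a depth-scaled ratio whose 95% interval began at 6.38 (counting error only). In FoB it held 22 and 1 reads and was not called.

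Rises were seen at Ctse, which encodes the aspartic protease cathepsin E (chr1:131653049-131653572). There MZB went from 3.51, 5.05 and 4.35 to 13.3, 14.5 and 7.98 rppm (1.34 ± 0.22) and FoB from 5.2, 8.87 and 4.54 to 22.3, 17.9 and 21.1 (1.69 ± 0.22). At Sox13, a transcription factor gene (chr1:133385496-133386157), MZB went from 4.59, 2.39 and 2.18 to 12.4, 11.7 and 12.7 rppm and FoB from 2.19, 5.4 and 1.91 to 9.93, 9.47 and 7.62. The groups did not overlap at either gene, and wild-type FoB library 2 was the highest of its group at both. Near Cyb5r1, chr1:134399681-134399989 held 0, 0 and 0.311 rppm in wild-type and 3.5, 4.1 and 2.07 in knockout MZB. Its reads were 1 and 35, a ratio of 34.5 (95% interval 5.8 to 1400). In FoB it went from 0, 0.771 and 0.239 to 2.28, 2.68 and 3.05 rppm. Within Ube2t, the gene of a ubiquitin-conjugating enzyme used in DNA crosslink repair, chr1:134968618-134968868 rose by 1.95 ± 0.46 in MZB and 2.33 ± 0.46 in FoB (log2).

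Neighbouring regions could go opposite ways. In Etnk2, an ethanolamine kinase gene, the region over the start site (chr1:133363365-133363838, whose promoter is printed above) went from 2.16, 2.92 and 1.87 to 7.23, 7.26 and 9.46 rppm in MZB. The region at chr1:133368146-133368393 in the same gene went from 3.78, 4.52 and 4.04 to 0.466, 0.631 and 0.296. Their log2 fold changes in MZB were 1.60 and -2.27, and neither was called in FoB (0.62 and -1.15). Syt2, which encodes a calcium sensor of vesicle release, had 5 called regions. One of them, at 134679406, fell in both cell types (-1.36 and -1.60), while the start-site region at 134708519 was called higher in MZB (1.38) and the regions at 134719655 and 134747522 were called higher in FoB (1.08 and 1.26). At Ube2t the start-site region at 134962133 fell (-0.52 and -0.65) while the region inside the gene rose.

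The start sites of Rnpep and Tmem9 completed the 5. At Rnpep, which encodes aminopeptidase B, the region at 135283450 went from 17, 17 and 15.2 to 8.63, 9.15 and 5.91 rppm in MZB and from 13.4, 13.8 and 16.7 to 6.41, 3.91 and 4.83 in FoB. The groups were separate in both cell types (-1.03 and -1.46). The region over the Tmem9 start at 136007620, assigned to the overlapping Igfn1 by its body, went from 2.7, 2.92 and 1.87 to 6.53, 7.57 and 9.16 rppm in MZB (1.47) and was not called in FoB (0.43). Thus of 5 start sites, those of Etnk2, Syt2 and Tmem9 were higher and those of Ube2t and Rnpep lower, each called in MZB.

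Some regions were called in MZB and had a smaller fold change in FoB, at Lemd1 and Syt2 with little signal there. Near Lemd1, chr1:132265272-132265823 went from 18.1, 19.7 and 15.2 to 3.27, 6.31 and 4.43 rppm in MZB (-1.85 ± 0.30). In FoB it held 3.01, 1.45 and 1.19 and 0.828, 2.27 and 1.27 (-0.28 ± 0.30). The groups were separate in MZB and overlapped in FoB, but the difference of the effects was not called (-1.57 ± 0.43, limma adjusted p = 0.616). In Syt2, chr1:134698468-134698759 went from 0.27, 0.798 and 0.622 to 4.2, 3.15 and 4.14 rppm in MZB (2.05 ± 0.39) and from 0.548, 0.289 and 0.239 to 0.621, 0.824 and 0.508 in FoB (0.43 ± 0.39). A Nek7 region had FoB signal near that of MZB in the wild type. In this gene of a mitotic kinase, chr1:138608326-138608829 went from 3.51, 3.46 and 2.49 to 12.8, 15.8 and 16.5 rppm in MZB (2.10 ± 0.31). In FoB it went from 1.37, 4.92 and 1.91 to 6.41, 5.97 and 2.29 (0.78 ± 0.31). The groups overlapped there because wild-type library 2 exceeded knockout library 3.

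The strongest signals of the stretch were steady. Of the 20 regions with the highest mean signal (47 to 137 rppm, not scaled by width), 11 lay over a start site and 1 was called. Their fold changes ran from -0.57 to 0.29 in MZB and from -0.35 to 0.19 in FoB. The called one, chr1:138614474-138615041 in Nek7, went from 64.8, 62.5 and 63.1 to 41.7, 44.2 and 42 rppm in MZB (-0.57 ± 0.09) and was not called in FoB (-0.35 ± 0.09). In 4 equal classes by mean signal, calls in either cell type ran from 12 of 156 (7.69%) in the lowest, through 9.03% and 13.5%, to 15 of 155 (9.68%) in the highest. Called regions were wider than the others (median 464.5 against 337 bp) and lay in gene bodies slightly more often (69.4% against 62.8%). They covered a start site at 5 of 62 (8.06%), against 10.4% of the uncalled.

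By function, most lists of genes in the stretch held calls in both directions. The counts stand against 8.37% of regions called in MZB and 6.28% in FoB over the whole stretch. Over all tested regions 0.502% were higher and 0.275% lower in MZB, and 0.32% and 0.219% in FoB. The stretch was selected on these calls, so nothing is read from a list against the latter shares. Renin, peptide and Wnt receptors (5 genes with regions) had 5 of 23 tested regions lower and 0 higher in both cell types, all at Ren1 and Lgr6, with a median log2 fold change of -0.40 in MZB and -0.28 in FoB. The median of all tested regions was -0.02 in both. Genes of cell division had 7 of 70 higher and 2 lower in MZB and 5 higher and 1 lower in FoB, at Kif14 (all outside the gene), Nek7 and Ube2t. Muscle genes had 4 of 35 higher and 2 lower in MZB and 3 higher and 1 lower in FoB. Complement regulators and Fc receptors had 2 of 37 higher (Fcamr) and 2 lower (Cd55) in each cell type, while Fcmr and Pigr had 0 called. Membrane traffic genes had 1 of 35 higher (Srgap2) in each cell type and 3 and 2 lower (Rab7b). Transcription and growth genes had 4 of 63 higher and 2 lower in MZB, at Elf3, Nr5a2, Sox13 and Zfp281. Genes of lymphocyte signalling had 3 of 109 higher and 2 lower in MZB and 1 lower in FoB, at Gpr25, Mapkapk2, Pik3c2b, Ptprc and Rassf5. The IL-10 family had 0 of 15 called.

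To see the effect in each library at regions not called on the difference between the same libraries, MZB libraries were read at the 39 regions called in FoB. FoB libraries were read at the 52 called in MZB. The choice was not independent of the libraries read, since 29 regions were called in both cell types. Over the 19 regions higher in FoB, the summed signal was 124, 125 and 112 rppm in wild-type MZB and 217, 258 and 229 in knockout MZB. Over the 20 lower ones it was 253, 260 and 264 in wild-type and 113, 115 and 111 in knockout MZB. Each group was tight and the genotypes did not overlap. The fit shared its estimate of spread over all 12 libraries, so tight groups are partly built into the choice of regions. In FoB the 28 regions higher in MZB summed to 72, 109 and 68.5 rppm in wild-type and 191, 191 and 173 in knockout libraries. The 24 lower ones summed to 286, 227 and 293 in wild-type and 142, 130 and 128 in knockout libraries. The genotypes were again separate, but wild-type FoB library 2 stood between its mates and the knockouts on both sums. The direction was fixed by the choice of the stretch, so the levels are a description of how evenly the libraries carry it.

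**Figure D5:**
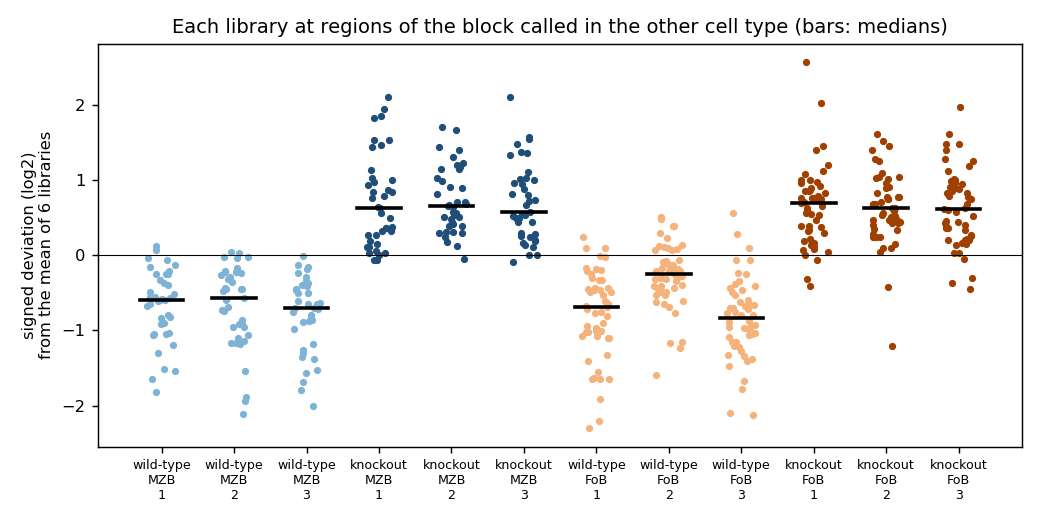
Deviation of each library from the mean of the 6 libraries of its cell type (log2, vertical axis), signed so that the direction of the knockout effect in the other cell type is positive, at the regions of the stretch called in that other cell type (39 for MZB, 52 for FoB); each point is a region and each bar the library's median. Wild-type libraries lie below 0 and knockout libraries above it, and FoB wild-type library 2 lies nearer 0 than its 2 mates.

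Wild-type FoB library 2 departed from its mates over most of the stretch. At 40 of the 52 regions (76.9%) it lay beyond both mates on the side of the knockout, against 9 for library 1 and 3 for library 3, and at 35 it lay between its mates and the knockout libraries. Its median deviation from its mates was 0.46 toward the knockout (log2), against -0.20 and -0.26 for the others. In MZB such medians ran from -0.11 to 0.13 and in knockout FoB from -0.04 to 0.04. On the summed signal it had gone 33.5% of the way from its mates to the knockouts at the higher regions and 40.3% at the lower ones. The shift was seen along the stretch. Its mean signed deviation from the 6-library mean was above that of both mates in each of the 10 bins of 1 Mb, which held 1 to 9 regions. It was -0.43 against -0.98 and -1.04 from 130 Mb and -0.18 against -0.80 and -1.06 from 136 Mb. The gap was smallest in 2 bins of 2 regions each: 0.23 against -0.62 and 0.10 from 132 Mb, and 0.16 against 0.02 and -0.36 from 137 Mb.

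The same library also leaned toward the knockout elsewhere. Of the 646 regions called in MZB outside the stretch, it lay beyond both mates at 312 (48.3%), against 157 for library 1 and 172 for library 3. There it had gone 26.6% of the way at the higher and 31.3% at the lower regions. In the 10 Mb just before the stretch it lay beyond both mates at 13 of 18 (72.2%), on chromosome 15 from 30 to 40 Mb at 21 of 25 (84.0%) and on chromosome 18 from 80 to 90 Mb at 21 of 32 (65.6%). In called regions outside these 4 stretches this held at 257 of 571 (45.0%), against 148 and 162 for its mates. It also had 10375328 reads, against 3652551 and 4188425 in its mates, and the part of depth in its position was not tested. Left out, the median FoB fold change at the regions called in MZB was 1.26 for the 28 higher and -1.55 for the 24 lower ones, against 1.05 and -1.41 with it.

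MZB and FoB themselves differed in the stretch about as much as elsewhere, and here the comparison was not used to choose it. Between the wild types, 126 regions were called higher in MZB (background 24.2%) and 84 lower (background 11.4%), together 33.8% of 621 against 35.7%. Between the knockouts 144 were higher (background 23.2%) and 77 lower (background 9.47%), together 35.6% against 32.7%. The SDs of the fold changes were 0.74 and 0.75, against 0.76 and 0.73 elsewhere. The direction split depended on scaling: after quantile normalisation the wild types had 76 higher (background 15%) and 122 lower (background 15.4%), together 31.9% against 30.4%. The knockouts then had 80 higher (background 13.6%) and 87 lower (background 12.1%), together 26.9% against 25.7%. DESeq2 called 87 higher (background 13.2%) between the knockouts. Of the called regions, 144 were called in both genotypes, 68.6% of those in the wild type and 65.2% of those in the knockout, and all 144 had the same sign. Of the 62 regions called in a knockout comparison, 20 (32.3%) also differed between the wild-type cell types, against 190 of 559 others (34.0%).

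Il10 differed between the cell types at every tested region. All 11 were higher in wild-type MZB, by 1.49 to 2.81 on the log2 scale (median 2.11), and 10 were called higher in knockout MZB. At chr1:131021625-131021874, which overlaps the gene, wild-type MZB had 4.32, 5.85 and 5.91 rppm and wild-type FoB 0, 0.675 and 0.478 (2.81 ± 0.40, limma adjusted p = 6.11e-07). Knockout MZB had 4.43, 6.31 and 4.73 rppm and knockout FoB 0, 1.03 and 1.02 (2.41, adjusted p = 9.03e-06). MZB libraries of either genotype lay above every FoB library. At chr1:131010529-131010924, 8921 bp away, the difference was 2.36 ± 0.33 in wild-type (adjusted p = 4.82e-07) and 1.93 in knockout cells (adjusted p = 1.65e-05). At chr1:130999578-131000001 it was 2.06 (adjusted p = 8.08e-06) and 2.73 ± 0.34 (adjusted p = 5.93e-08). Il19, the other gene of that family with regions, brought the count to 12 of 15 higher in each genotype.

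One of the largest differences between the wild types lay between Il10 and Mapkapk2, which encodes a kinase downstream of p38. At chr1:131046423-131047020, 6680 bp from Mapkapk2, wild-type MZB had 26.4, 23.4 and 24.9 rppm and wild-type FoB 1.92, 3.18 and 3.1. Knockout MZB had 17.7, 22.4 and 19.8 rppm and knockout FoB 2.9, 3.09 and 2.54. MZB exceeded FoB by 3 ± 0.20 (adjusted p = 1.82e-14) and 2.61 (adjusted p = 6.22e-13). The Lemd1 region named above was higher in wild-type MZB by 3 ± 0.30 (adjusted p = 5.52e-10) and in knockout MZB by 1.43 ± 0.30 (adjusted p = 0.000302). Ppp1r12b, which encodes a regulatory subunit of myosin phosphatase, had 10 of 14 regions higher in wild-type and 12 in knockout MZB. At chr1:134911986-134912353 the difference was 2.11 (adjusted p = 7.93e-07) and 2.70 ± 0.30 (adjusted p = 7.49e-09).

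Regions with more signal in FoB gathered at other genes. Cd55 had 5 of 9 regions lower in wild-type MZB and 0 higher, and Btg2, which encodes an antiproliferative protein, 5 of 10 and 0. Kif21b, a kinesin gene, had 6 of 9 lower and 0 higher, and Elk4, an Ets factor gene, 4 of 5 and 0. The largest such difference was near Zp3r (chr1:130508647-130509043), at -1.41 ± 0.36 in wild-type (adjusted p = 0.00228) and -1.26 in knockout cells (adjusted p = 0.00661). In knockout cells the Tnnt2 regions at 135847182 and 135844064 were higher in MZB, by 2.81 ± 0.36 and 2.61 ± 0.43. Both were among the largest rises in knockout MZB, a comparison that chose the stretch. The region at 135844064 also reached 1 rppm only in the 3 knockout MZB libraries. These 2 differences are therefore a description, with no test. Neither region was called between the wild types. The Lgr6 region at 135095113, which fell in both knockouts, was higher in MZB with either genotype (0.91, adjusted p = 0.0105, and 1.47, adjusted p = 8.59e-05).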

How the data were processed

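The values in the 1 table the authors deposited are RPM (rppm), read counts per region scaled so that each library sums to 1000000. The submitters' processing notes name Bowtie 1.1.1, MACS2 and the build mm10. The sources used here do not give read filters, any shift for Tn5 insertion, the merging of peaks or the base of the coordinates, which are printed as deposited. The members and gene lists were chosen with earlier results of these data known.

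Every value was a whole multiple of its library's smallest step (tolerance 0.01), so 100% of values gave whole reads. Differences were fitted over all 89782 tested regions with limma 3.58.1 (R 4.3.3; trended empirical Bayes, two-sided, Benjamini-Hochberg) on log2(rppm + 0.5), with 1 coefficient per group over 12 libraries. Fold changes on this scale understate the change of low regions. Each region took the name of the protein-coding gene it overlaps, or else the nearest, from RefSeq GRCm38.p6, the same mouse assembly as mm10. The script was tested on simulated data. Alternatives were other pseudocounts, filters, scaling and samples, a replicate block, each library left out, and, chosen after seeing the data, edgeR 4.0.16 and DESeq2 1.42.0 on recovered reads. Intervals cover counting error only, as PCR copies were not told apart by molecular identifiers. No 2 libraries of a group agreed within sampling noise.

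Regions were named by a rule: the 8 largest rises and falls per knockout comparison among called regions whose libraries do not overlap, 1 region per gene of the rule, up to 2 per list, the 4 largest cell-type differences each way, and 2 on each side of each border, of which 1 is not reported here. Other regions, the start sites among them, were chosen after their values were seen.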

Additional observations from a re-analysis of the deposited data

How the results depend on the processing

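Precision is limited by 3 libraries per group and by low counts at many regions. DESeq2 on the recovered reads called fewer regions: 13 higher and 12 lower in knockout MZB, 11 and 13 in knockout FoB, 16 in both cell types, and 87 higher in knockout MZB than knockout FoB. The cause was not tested. Quantile normalisation gave 76 regions higher in MZB between the wild types and 80 between the knockouts. A pseudocount of 2 gave 1 call for the difference of the knockout effects, against 0. Leaving out each library in turn gave 16 to 30 regions higher and 19 to 26 lower in knockout MZB, 11 to 20 and 15 to 21 in knockout FoB, and 19 to 28 called in both. It gave 108 to 128 higher and 62 to 87 lower in MZB between the wild types, 112 to 147 and 57 to 81 between the knockouts, and 0 to 1 for the difference of the effects. Whether replicate numbers pair the libraries is not known. Deviations of same-numbered libraries from their group means correlated at -0.09 to 0.13. Such values cannot decide it, since much of a deviation is counting noise. With the number as a replicate block, 29 regions were called higher and 24 lower in MZB and 19 and 21 in FoB, 29 in both, and 0 for the difference. Of 48 called knockout values at named regions, 36 stayed called with every library left out in turn, and of 16 cell-type values, 10. No called value changed sign under these settings.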
